A study of Homo sapiens with 6 samples.

Results

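The genes described here are the 10 enzymes that turn tryptophan into kynurenine and carry kynurenine on to its next products. They were chosen by name from the pathway, and all 10 were found among the 61228 gene names of the deposited tables. RNA-seq was performed on HBE cells (HBECs), a bronchial epithelial line of human origin that was immortalized and is wild type. In 3 libraries the cells had received cockroach extract (CRE), an airway allergen, for 24 h. In the other 3 libraries they had received both CRE and VAF347, a small-molecule agonist of the aryl hydrocarbon receptor (AhR), which by the study's methods was added before CRE. Every library therefore carried CRE, and the comparison of CRE + VAF347 with CRE asks what adding VAF347 changed in allergen-exposed cells. The labels do not say whether the replicates came from separate cultures, so p-values measure the spread between these libraries, which may be technical.

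Tryptophan is opened by the dioxygenases *IDO1*, *IDO2* and *TDO2*, and the formamidase *AFMID* then releases kynurenine. Kynurenine can be hydroxylated by *KMO*, cleaved by *KYNU*, or converted to kynurenic acid by the aminotransferases *KYAT1*, *KYAT3* and *AADAT*, while *HAAO* acts downstream of *KMO* and *KYNU* on the way to NAD. Kynurenine and kynurenic acid are known as natural ligands of AhR. *IDO1* is known as an interferon-induced gene, *TDO2* as a liver gene, and *KMO* and *KYNU* are abundant in liver and myeloid cells.

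The libraries held 8873140 to 10750265 counts, so that a single count corresponded to 0.0930 to 0.113 counts per 1e6 (CPM), and 3 counts were taken as the floor of detection. Over all 15373 genes tested with edgeR, a gene was called where its adjusted p was under 0.05 and its log2 fold change exceeded 0.5 in size. CRE replicate 3 stood apart from its group, since the chi-square averaged over genes was 12.0 and 11.7 against CRE replicates 1 and 2 and 1.84 to 2.93 for the other replicate pairs. The AhR target *CYP1A1* had 5 to 8 counts with CRE and 412 to 460 with CRE + VAF347. Epithelial markers were present, with *KRT8* at 1250 and *EPCAM* at 544 mean TPM (an abundance scaled to transcript length and library total) with CRE, whereas *KRT14* and *TP63* did not exceed 2 counts in any library and *SCGB1A1* had 0 counts in all of them.

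Promoter sequences of 8 members were taken from RefSeq on GRCh38.p14, each spanning 250 bases before to 50 bases after a start site. *IDO1* and *IDO2* had no entry in the promoter set used, so their promoters were not searched. The set is shown because AhR binds DNA through the core letters GCGTG, and because the members' promoters differed in base composition. Upstream runs outside annotated exons are given for *KYNU*, *TDO2*, *HAAO* and *AFMID*. *KYNU* was narrowly called lower with VAF347 on few counts, *TDO2* and *HAAO* were at or under the floor, and *AFMID* showed no detectable difference. The runs are written 5′ to 3′ on the strand of the gene, with the AhR core on either strand in capitals.
KYNU (plus strand, chr2:142877414-142877656): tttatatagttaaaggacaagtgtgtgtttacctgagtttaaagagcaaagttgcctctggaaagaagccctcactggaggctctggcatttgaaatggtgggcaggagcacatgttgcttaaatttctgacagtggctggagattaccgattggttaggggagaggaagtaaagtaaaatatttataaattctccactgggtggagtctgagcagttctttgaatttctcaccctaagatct
TDO2 (plus strand, chr4:155903446-155903692): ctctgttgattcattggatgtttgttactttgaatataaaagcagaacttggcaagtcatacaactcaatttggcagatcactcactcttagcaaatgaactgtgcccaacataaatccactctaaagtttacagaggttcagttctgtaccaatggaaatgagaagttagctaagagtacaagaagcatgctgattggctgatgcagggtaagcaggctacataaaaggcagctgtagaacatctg
HAAO (minus strand, chr2:42792594-42792734): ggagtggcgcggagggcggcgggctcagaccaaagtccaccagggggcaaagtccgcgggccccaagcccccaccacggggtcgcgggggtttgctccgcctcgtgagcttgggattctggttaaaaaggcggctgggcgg
AFMID (plus strand, chr17:78187234-78187357): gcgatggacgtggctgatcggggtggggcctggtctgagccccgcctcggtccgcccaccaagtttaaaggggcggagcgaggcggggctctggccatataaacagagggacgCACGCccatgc

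In the 300-base windows, the core GCGTG was found on either strand in 2 of the 12 entries of these members, the entry of *AFMID* and 1 of the 3 of *AADAT*, against 36.5% of all 35116 promoter entries in the table. The *AFMID* copy lies on the opposite strand, its leftmost base 15 bases before the start. The longer form TNGCGTG was found in 0 of the 12 entries, against 5.51% of all entries. *KYNU*, *KMO* and *TDO2* each held 1 CpG in this window at 42.3%, 36.7% and 41.3% GC, whereas *AFMID* held 25, *KYAT3* 22 and *HAAO* 37, and the median of all promoters was 14 at 58.7% GC. *AADAT* and *KYAT1* have 3 start sites each in the table, with 12 to 44 and 1 to 35 CpG. A match to these letters is a description of the window and not a binding site. The lack of a match is likewise only a description. Among the AhR targets named below, TNGCGTG was found for *AHRR* and *NQO1* and not for *CYP1A1* or *TIPARP*, and *CYP1B1* had no entry.

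*IDO1*, the dioxygenase that opens the tryptophan ring outside the liver, fell with VAF347. It lies on chromosome 8 of GRCh38 from 39902275 to 39928790. The CRE libraries held 380, 518 and 449 counts, and those with VAF347 held 242, 248 and 198. Every CRE + VAF347 library lay below every CRE library, as was the case for 14.8% of all genes tested. Its mean in the CRE group was 64.9 ± 14.2 TPM (SD, n = 3), against 32.1 ± 1.82 TPM (SD, n = 3) once VAF347 was added. On the count scale the log2 fold change was -0.86 (standard error 0.13, 95% interval -1.14 to -0.58, edgeR adjusted p = 0.00310), or 1.81-fold lower. Of the 10 members 7 were tested and 2, *IDO1* and *KYNU*, were called, both lower. The background in the same table was 2.21% of all genes tested, 1.71% lower and 0.501% higher. With no fold threshold the same 2 members passed, against 5.42% of all genes, 4.07% lower and 1.35% higher. *IDO1* was called in each fit that left out 1 library, with log2 fold changes of -0.95 to -0.73. On log2(TPM + 1) without a filter on low values, where limma called far fewer genes of any kind, its value was -0.97 and its adjusted p was 0.146.

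The other dioxygenases were at or under the floor. *IDO2*, next to *IDO1* on chromosome 8 from 39934614 to 40016392, had 2, 1 and 2 counts with CRE and 0 in each CRE + VAF347 library, so no fold change is given. *TDO2*, on chromosome 4 from 155854738 to 155920406, had 0 counts among the 59135349 of all libraries together, which allows a level of up to 0.0507 CPM by counting error alone. *IDO1* was thus the only dioxygenase of the 3 above the floor of detection in these cells. *AFMID*, on chromosome 17 from 78187358 to 78207702, had 172, 169 and 155 counts with CRE and 141, 161 and 177 with CRE + VAF347. The groups overlapped, and its log2 fold change of 0.05 (95% interval -0.19 to 0.29, edgeR adjusted p = 0.838) did not pass.

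**Figure D1:**
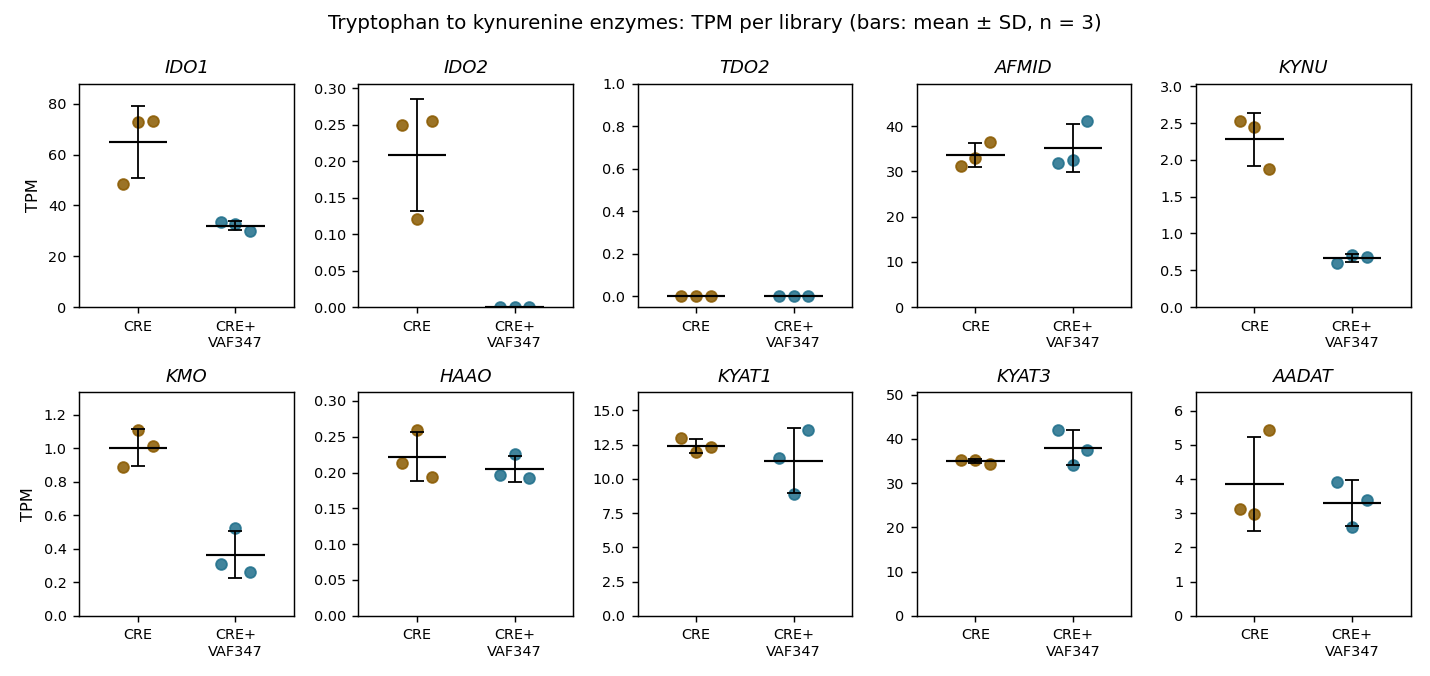
Deposited TPM of each of the 10 genes in each library, with each panel on its own linear axis (only the axis of TDO2 begins below 0), points for the 3 libraries of a group and bars for mean ± SD. The CRE + VAF347 points of IDO1, IDO2, KYNU and KMO all lie below the CRE points, TDO2 is at 0 throughout, and the groups overlap for AFMID, HAAO, KYAT1, KYAT3 and AADAT.

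*KYNU* and *KMO*, which take kynurenine towards 3-hydroxyanthranilic acid, were near the limit of detection with CRE and lower still with VAF347. *KYNU*, the kynureninase on chromosome 2 from 142877657 to 143055833, had 13, 15 and 12 counts with CRE and 4, 5 and 5 with CRE + VAF347. The groups did not overlap, and each CRE + VAF347 library held only 1 or 2 counts more than the floor. Its mean in the CRE group was 1.31 ± 0.177 CPM (SD, n = 3), against 0.491 ± 0.0387 CPM (SD, n = 3) once VAF347 was added. The log2 fold change of -1.39 (standard error 0.35, 95% interval -2.16 to -0.62) passed narrowly (edgeR adjusted p = 0.0436). The call was lost whichever library was left out, with adjusted p of 0.0520 to 0.160 and log2 fold changes of -1.49 to -1.30. The call was also lost without a filter on low counts (adjusted p = 0.0595).

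*KMO*, the kynurenine 3-monooxygenase on chromosome 1 from 241532134 to 241595642, had 16, 23 and 19 counts with CRE and 6, 11 and 6 with CRE + VAF347. These groups did not overlap either, as was the case for 27.3% of all genes tested in either direction. Its log2 fold change was -1.22 (standard error 0.34, 95% interval -1.95 to -0.48), and its adjusted p of 0.0616 from the edgeR test missed the threshold. Without a filter on low counts the same log2 fold change had an adjusted p of 0.0325. *KYNU* and *KMO* entered the test only through their CRE libraries, since the filter asked for about 1.01 CPM in 3 libraries, and their count among called members is therefore no support of its own. *OPN3*, which overlaps *KMO* on the opposite strand and had 272 to 380 estimated counts, had a log2 fold change of -0.02 (standard error 0.11).

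*HAAO*, the dioxygenase that acts on 3-hydroxyanthranilic acid, had 2, 2 and 1 counts in both groups and lay under the floor. It is on chromosome 2 from 42767089 to 42792593. *KMO*, *KYNU* and *IDO1* are also made by myeloid cells. Of 9 myeloid markers, *PTPRC* had 0 to 2 counts and *CD1C* 0 counts in every library. In this list 4 were tested and *CSF1R* was called lower (log2 fold change -0.59, edgeR adjusted p = 0.0265), where 1.71% of all genes tested were called lower. The summed TPM of the 9 markers was 41.0 to 48.4 with CRE and 27.4 to 35.6 with CRE + VAF347. Its largest parts were *CD68*, which was not called (23.2 and 17.4 mean TPM), and *CSF1R* (14.0 and 8.87 mean TPM). Of 4 endothelial markers 3 were tested and 2 were called lower, against the same 1.71% of all genes tested. They were *VWF*, with 24, 38 and 39 counts with CRE and 12, 10 and 12 with CRE + VAF347 (log2 fold change -1.45, edgeR adjusted p = 0.0107), and *CDH5* (log2 fold change -0.84, edgeR adjusted p = 0.00119). The other tested marker, *KDR*, had 69, 68 and 88 counts with CRE and 89, 74 and 67 with CRE + VAF347. It was not called (log2 fold change 0.14, edgeR adjusted p = 0.683). *PECAM1* had 0 to 3 counts, and the summed TPM of the endothelial list was 9.41 to 10.4 with CRE and 6.03 to 7.46 with CRE + VAF347. Of 9 airway epithelial markers 7 were tested and 0 called, although *KRT19* (log2 fold change -0.38, edgeR adjusted p = 0.0265) and *KRT17* (log2 fold change -0.27, edgeR adjusted p = 0.0240) passed on p and not on fold. The summed TPM of that list was 3460 to 4310 with CRE and 3470 to 3550 with CRE + VAF347. The hepatocyte and fibroblast lists of 5 markers each had 1 tested gene and 0 calls. The tested genes were *SERPINA1*, at 4.63 mean TPM with CRE and 3.56 with CRE + VAF347, and *COL1A1*, at 19.1 and 16.3. In contrast, *ALB* had 0 to 2 counts and *DCN* 0. The summed TPM of these lists was 3.72 to 6.09 and 18.2 to 20.5 with CRE, and 3.22 to 3.83 and 14.5 to 18.0 with CRE + VAF347. The part of these marker shifts in the changes of *IDO1*, *KYNU* and *KMO* was not tested. All markers were read in bulk RNA of the same epithelial line. In such RNA, fewer cells that make a transcript and less transcript per cell cannot be told apart.

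The 3 aminotransferases, which make kynurenic acid, showed no call. *KYAT3*, on chromosome 1 from 88935773 to 88992953, had 253, 235 and 243 counts with CRE and 262, 225 and 262 with CRE + VAF347. Its groups overlapped, with a log2 fold change of 0.14 (95% interval -0.09 to 0.36, edgeR adjusted p = 0.481). *KYAT1*, on chromosome 9 from 128832942 to 128882494, had 153, 166 and 166 counts with CRE and 134, 116 and 129 with CRE + VAF347. In CPM every CRE + VAF347 library lay below every CRE library, as was the case for 14.8% of all genes tested. The log2 fold change of *KYAT1* of -0.25 (95% interval -0.49 to -0.01) did not pass after adjustment (edgeR adjusted p = 0.225). *AADAT*, on chromosome 4 from 170060222 to 170091699, had 30, 31 and 48 counts with CRE and 37, 26 and 24 with CRE + VAF347. CRE replicate 3 was the highest of the 6, the other libraries of the groups were interleaved, and the log2 fold change of -0.21 had a 95% interval of -0.79 to 0.36.

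Salmon divides fragments between genes that share exons, which touches both KYAT genes. ENSG00000286112, annotated on the same strand over nearly all of *KYAT1*, had 39.4, 77.0 and 139 estimated counts in the CRE + VAF347 libraries and 70.6 to 81.7 with CRE. Added to *KYAT1*, the sum had a log2 fold change of -0.07 (95% interval -0.34 to 0.19). *LRRC8A*, which overlaps the end of *KYAT1* by 362 bases on the opposite strand, had 2546, 2628 and 2958 counts with CRE and 1891, 2072 and 2183 with CRE + VAF347 (log2 fold change -0.30, edgeR adjusted p = 0.0117, under the fold threshold). *KYAT3* summed with *RBMXL1*, which overlaps it on the same strand, had a log2 fold change of 0.09 (95% interval -0.09 to 0.27). These sums were chosen after the data were seen.

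**Figure D2:**
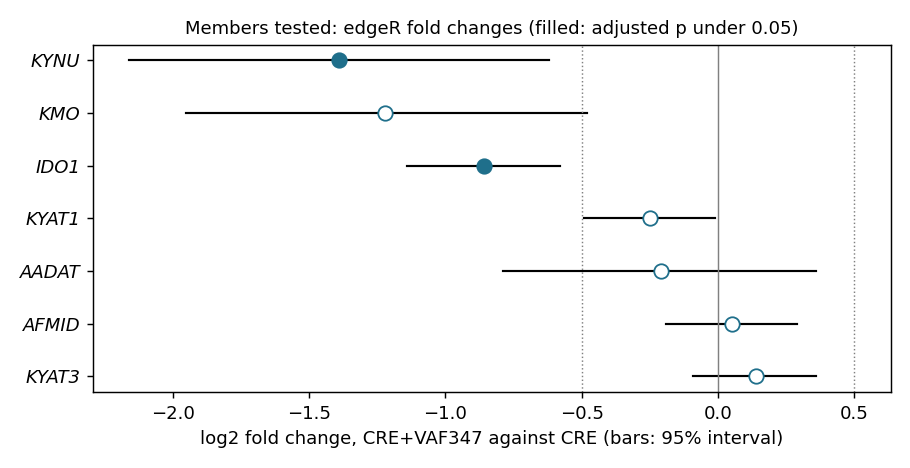
Log2 fold change of CRE + VAF347 against CRE for the 7 members tested, with 95% intervals, dotted lines at an absolute log2 fold change of 0.5, and filled points for called genes. IDO1 (-0.86) and KYNU (-1.39) are filled, KMO (-1.22) is open, and the intervals of AFMID, KYAT3 and AADAT span 0.

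On the per-length scale of TPM, the order of the members changed at its top. With CRE, *IDO1* was highest at 48.5, 73.0 and 73.3 TPM and did not overlap the next gene. *KYAT3* (34.4 to 35.3 TPM) and *AFMID* (31.3 to 36.6 TPM) followed and overlapped each other. With CRE + VAF347, *IDO1* had 33.5 and 32.7 TPM in replicates 1 and 2 and less in replicate 3, and it overlapped *AFMID* (31.8 to 41.2 TPM), which overlapped *KYAT3* (34.2 to 42.1 TPM). In both groups *KYAT1* came next (12.0 to 13.0 and 8.90 to 13.6 TPM), then *AADAT* (2.98 to 5.45 and 2.60 to 3.92 TPM), *KYNU* (1.87 to 2.53 and 0.604 to 0.709 TPM) and *KMO* (0.890 to 1.11 and 0.263 to 0.526 TPM), with no overlap between neighbours. *HAAO* stayed under 0.3 TPM in every library. *IDO1* stood at percentile 74.9 of all genes tested by mean TPM, and *KYNU* and *KMO* at 8.38 and 2.35.

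Within each library, the ratio of *IDO1* to *KYAT3* TPM was 1.37, 2.07 and 2.13 with CRE and 0.796, 0.954 and 0.798 with CRE + VAF347, so that *IDO1* exceeded *KYAT3* in every CRE library and in no CRE + VAF347 library. The 3 aminotransferases together held 50.3 to 52.2 TPM with CRE and 45.7 to 57.5 TPM with CRE + VAF347, whereas *KMO* and *KYNU* together held 2.88 to 3.56 and 0.910 to 1.23 TPM. Aminotransferase transcripts thus outnumbered those of *KMO* and *KYNU* by 14.1 to 18.1 times with CRE and 37.0 to 63.2 times with CRE + VAF347. The aminotransferase sums of the groups overlapped, so the higher ratio reflects its denominator. With CRE + VAF347 that denominator rests on 4, 5 and 5 counts of *KYNU* and 6, 11 and 6 of *KMO*. These ratios describe transcripts and no metabolite was measured, and they carry no test because the genes were chosen with their values known.

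**Figure D3:**
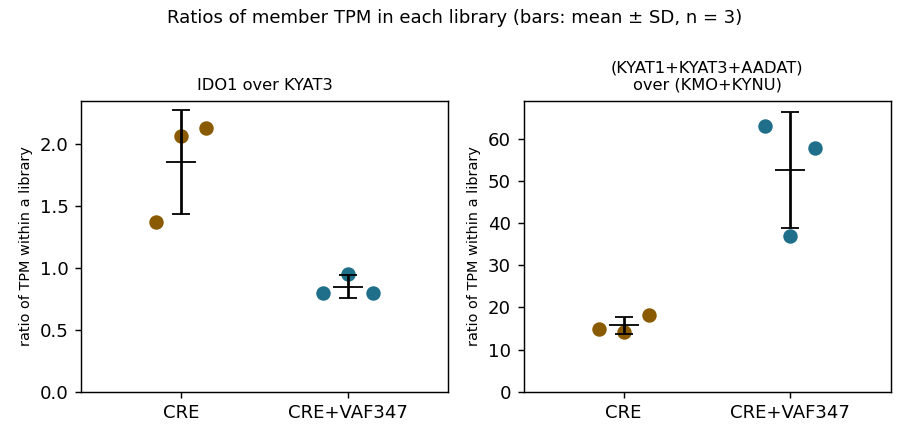
Ratio of deposited TPM within each library, IDO1 over KYAT3 on the left and the 3 aminotransferases over KMO plus KYNU on the right, with points for libraries and bars for mean ± SD. The left ratio is 1.37 to 2.13 with CRE and 0.796 to 0.954 with CRE + VAF347, and the right ratio is 14.1 to 18.1 and 37.0 to 63.2. With CRE + VAF347 the right ratio divides by genes with counts near the floor of detection.

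The transcript mix was read from the count divided by the TPM of a gene, which follows the mean effective transcript length used by Salmon. The 5 members with at least 10 counts in every library had log2 differences between -0.13 (*KYAT1*, 95% interval -0.52 to 0.26) and 0.10 (*IDO1*, 95% interval -0.18 to 0.38), none past the limma test (adjusted p of 0.851 to 0.982). Of 14255 genes tested in this way, 0 passed and 960 had an unadjusted p under 0.05, and the percentage called over all genes was 0. A change of transcript mix was therefore not detectable for these members.

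The genes whose pattern over the 6 libraries was most like that of *IDO1* were *HDAC9*, *CTSF* and *DDX60L*, with Pearson's r of 0.9997, 0.9986 and 0.9924 on log2 CPM among 11037 genes outside the lists. For *KYNU* they were *COL9A3*, *ZFP62* and *UBL4A*, with r of 0.9988, 0.9964 and 0.9951. The 6 points fall into the 2 treatment groups, and these genes were picked for the highest r, so the values are descriptions. Of these genes *HDAC9* and *COL9A3* were called lower, with log2 fold changes of -0.54 and -0.70.

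Around the pathway, 58 genes in lists by function were examined, of which 41 were tested, 8 were called higher and 1 lower, where 0.501% and 1.71% of all genes tested were called in these directions. The list of AhR and its targets accounts for 5 of the higher genes, *CYP1A1* (log2 fold change 6.20), *CYP1B1* (3.14), *TIPARP* (2.24), *AHRR* (2.16) and *NQO1* (0.86). Targets of AhR were likely beforehand to rise with its agonist, and the lists were chosen with earlier results known. The share called higher is therefore no result about the kynurenine pathway. *AHR* itself had a log2 fold change of 0.08 (95% interval -0.08 to 0.24). The other 3 were transporters of tryptophan, kynurenine or partner amino acids. *SLC7A5*, the light chain of the carrier that brings tryptophan and kynurenine into cells, had 4484, 4850 and 5982 counts with CRE and 12008, 13237 and 14361 with CRE + VAF347. All VAF347 libraries were above all CRE libraries, as was the case for 12.5% of all genes tested. The log2 fold change of *SLC7A5* was 1.48 (standard error 0.08, edgeR adjusted p = 1.59e-06). Its heavy chain *SLC3A2* rose by 1.13 and the cystine and glutamate exchanger *SLC7A11*, which pairs with the same heavy chain, rose by 1.18 on the log2 scale. *SLC16A10*, an aromatic amino acid transporter, had 22 to 33 counts with CRE and 34 to 55 with CRE + VAF347 and did not pass (log2 fold change 0.76, edgeR adjusted p = 0.101). Of the 7 transport genes tested the other 4, *SLC16A10*, *SLC36A4*, *SLC7A8* and *SLC43A2*, were not called.

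Of the interferon gamma genes, 8 of 11 were tested. *GBP1*, an interferon-induced GTPase, was called lower, with 733, 883 and 1020 counts with CRE and 548, 563 and 543 with CRE + VAF347 (log2 fold change -0.56, standard error 0.09, edgeR adjusted p = 0.00439). *IRF1*, an interferon-induced transcription factor and the most abundant tested gene of the list, had a log2 fold change of 0.16 (95% interval 0.02 to 0.30, edgeR adjusted p = 0.189) and was not called. *IFNG* and *CXCL9* had 0 counts in every library, and the median log2 fold change of the list was 0.01, the same as over all genes tested.

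Outside the 10 members, no listed gene of the routes that follow or compete with kynurenine formation was called. In the NAD and glutarate branch, 8 of 10 genes were tested with a median log2 fold change of 0.03. *QPRT*, which turns quinolinic acid into a precursor of NAD, had 14, 16 and 19 counts with CRE and 12, 10 and 14 with CRE + VAF347 (log2 fold change -0.34, 95% interval -0.96 to 0.28). The most abundant gene of this branch was *GOT2*, a mitochondrial aspartate aminotransferase that can also act on kynurenine, at 127 and 128 mean TPM. Among other uses of tryptophan, 3 of 10 genes were tested, and *WARS1*, the tryptophanyl-tRNA synthetase, was the most abundant at 177 and 183 mean TPM (log2 fold change -0.12, 95% interval -0.25 to 0.01). *IL4I1*, an oxidase that makes AhR ligands from tryptophan, had 9, 11 and 10 counts with CRE and 5, 6 and 3 with CRE + VAF347. It did not pass the filter, and a fit without it gave a log2 fold change of -0.98 (95% interval -1.99 to 0.04, edgeR adjusted p = 0.385). The serotonin enzymes *TPH1*, *TPH2* and *DDC* had 0 to 4 counts in every library. All 4 receptors for kynurenine metabolites were tested with no call, and their median log2 fold change was 0.28. The most abundant was *HCAR3* at 16.2 and 13.8 mean TPM (log2 fold change -0.21). *GRIN1* missed the threshold, with a log2 fold change of 0.53 (95% interval 0.20 to 0.87, edgeR adjusted p = 0.0692). In NAD salvage, 4 of 5 genes were tested with no call, and *NAMPT* had 162 and 149 mean TPM with a log2 fold change of -0.00 (95% interval -0.13 to 0.12).

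**Figure D4:**
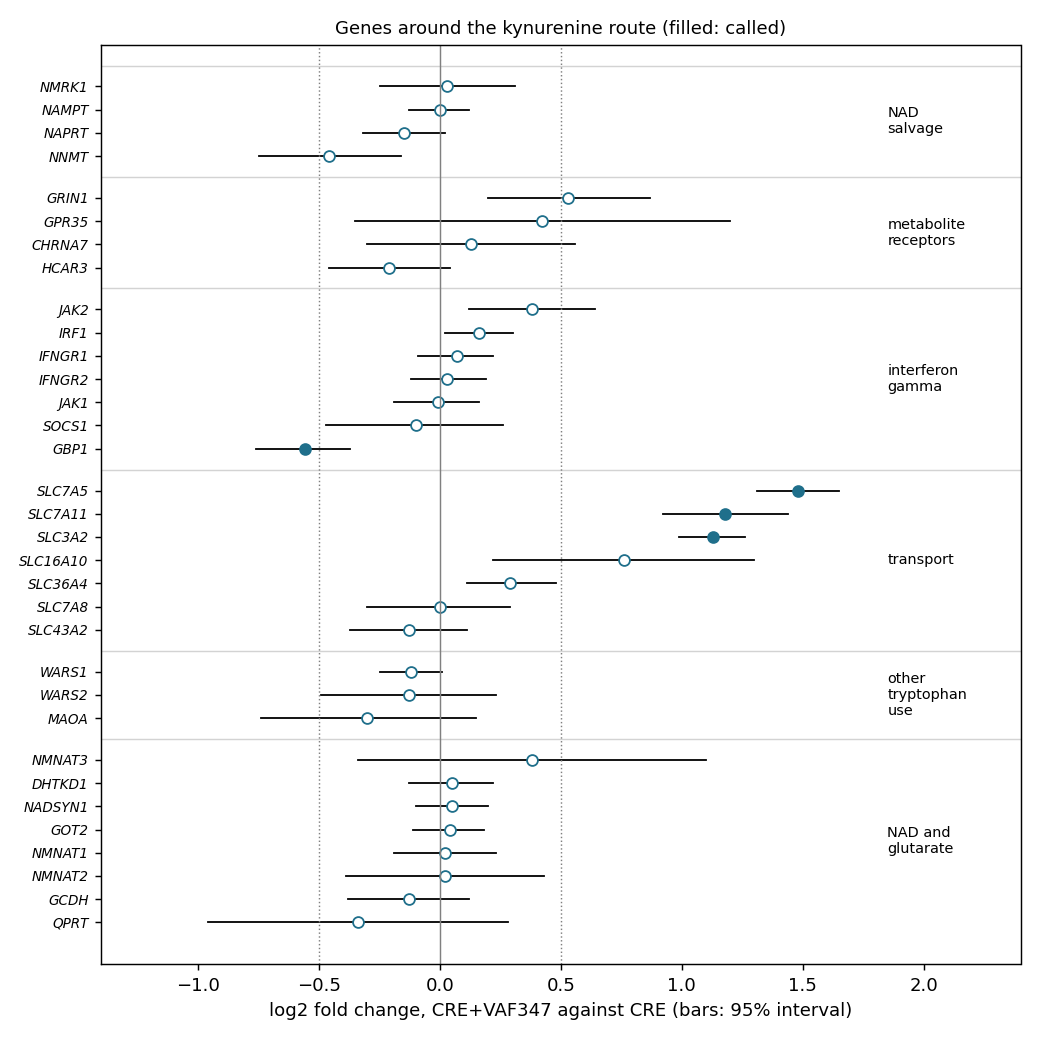
Log2 fold change of CRE + VAF347 against CRE, with 95% intervals, for tested genes of 6 lists around the kynurenine route (1 tested interferon gamma gene is not drawn), with dotted lines at an absolute log2 fold change of 0.5 and filled points for called genes. SLC7A5 (1.48), SLC7A11 (1.18), SLC3A2 (1.13) and GBP1 (-0.56) are filled, and the other genes drawn are open.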

How the data were processed

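RNA-seq of 6 libraries was analysed, 3 per group, grouped by the sample titles, which name the table columns (0 columns were left unmatched). The authors made the deposited expected counts with Salmon from paired-end, poly(A)-enriched libraries, build hg38 per the labels, summed per gene symbol and not scaled to depth. The deposited TPM come from the same step. The Salmon version, the annotation and the use of strand are not given in the sources used here, and all 61228 gene names occur in GENCODE v44 (GRCh38). A table of the authors' own DESeq2 comparison (fold changes and p-values) was not used.

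Counts were rounded to whole numbers, since 39.3% of values above 0 had decimals. The test was edgeR's quasi-likelihood test (version 4.0.16, R 4.3.3) after filterByExpr and TMM, with Benjamini-Hochberg adjustment over all genes tested. The contrast and the fold threshold of 0.5 follow the study. The study states a p under 0.05 without naming an adjustment, whereas an adjusted p was used here. CPM are TMM-scaled. Transcript length ratios and TPM were tested with limma 3.58.1 (pseudocounts 1 and 0.1). Groups of 3 allow no exact permutation p under 0.1. The named genes are the 10 members, genes overlapping them, the 3 of most like pattern to each called member, and from each list other than the marker lists the called genes, up to 4 by size of change, and the most abundant tested gene. Marker genes and others, such as *IL4I1*, *SLC16A10*, *QPRT* and *AHR*, were named after their values were seen. 1 gene of the lists is counted but not reported here by name. Members and lists were chosen with earlier results of these data known. Each test was first tried on simulated counts. Alternatives were DESeq2 1.42.0, its size factors, other filters and thresholds, TPM with limma, a GC offset, a replicate block and leaving out each library.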

Additional observations from a re-analysis of the deposited data

How the results depend on the processing

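The direction of *IDO1*, *KYNU* and *KMO* was the same in every alternative that gave a value, 16, 14 and 12 of them, with log2 fold changes of -0.99 to -0.73, -1.63 to -0.97 and -1.57 to -0.56. A GC offset, tried because fold changes followed transcript GC content over 11085 genes (Spearman's rho -0.35), gave -0.91, -1.47 and -1.30, with both calls retained. 1 member in place of 2 was called lower with a minimum of 10 counts in every library and with limma on TPM at a mean of at least 1 (pseudocounts 1 and 0.1), and 0 with limma on TPM without a filter. DESeq2 called 1, *IDO1*, and gave no adjusted p for *KYNU* and *KMO*. Leaving out 1 library left 1 to 1 members called lower, *IDO1* each time. Without a filter on low counts 2 were called, *IDO1* and *KMO*. With an unadjusted p and the fold threshold 3 were called lower, *IDO1*, *KYNU* and *KMO*. Over all genes, lower and higher calls numbered 411 and 187 without a filter, 50 and 34 with limma on log2(TPM + 1), 52 and 32 on log2(TPM + 0.1), 12 and 20 on log2(TPM + 1) without a filter, 626 and 207 with no fold threshold, and 502 and 247 with an unadjusted p, against 263 and 77 reported. Without 1 library, lower calls ran from 143, without CRE + VAF347 replicate 3, to 270, and higher calls from 58 to 110. The pathway lists had 0 lower calls in the 3 limma fits on TPM, and 5 higher calls in the unfiltered one. The causes were not tested.

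With the replicate number as a block, 1 member was called lower, and *KYNU* had an adjusted p of 0.0769. Deviations of same-numbered libraries had correlations of 0.071, 0.104 and 0.046, each higher than those of differently numbered libraries, which is a hint from the data only, since the labels give no shared culture or day. Depth limits *IDO2*, *TDO2* and *HAAO* to statements about the floor. No gene passed the transcript length test in any alternative of it.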
